A study of Mus musculus with 5 samples.

Results

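The genes described here are 42 genes of mitosis, chosen by symbol from the deposited table of 53927 genes: mitotic cyclins and kinases, kinetochore, spindle checkpoint, passenger complex, spindle and cytokinesis genes, and 2 transcription factors that drive them. All 42 were found, in 43 rows, because a second entry for Kif11 (ENSMUSG00000111220.1) was listed at 0 in every library and was set aside. The cells were primary nephron progenitor cells of C57BL/6J mouse embryos, the kidney precursors from which nephrons form, grown in a culture made to keep progenitors and collected after 1 passage. They carried no intact Dis3l2 allele (Dis3l2-/-, KO, 3 libraries) or 2 wild-type alleles (Dis3l2+/+, WT, 2 libraries), and the age of the embryos is not stated. Dis3l2 encodes an exoribonuclease that degrades RNA from its 3' end, and its loss causes Perlman syndrome, with fetal overgrowth and Wilms tumour. The question put to the mitosis genes was whether their RNA differs between the genotypes. Nothing states that the libraries come from separate embryos, so every p-value refers only to the spread among these 5 libraries and may reflect technical spread.

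Cells express most of these genes in a wave that begins in S phase, peaks in G2 and M, and ends as the cells divide. Cdk1 with cyclin A or B starts mitosis, the Plk1 and Aurora kinases build the spindle, and the kinetochore attaches chromosomes to it. The checkpoint holds back the anaphase promoting complex until all chromosomes are attached, and that complex then destroys cyclin B and securin. In a bulk library the level of such a gene depends on the share of cells in G2 and M and on the RNA per cell, and these 2 cannot be told apart here.

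Levels are CPM of an effective library size, as the authors deposited them, and differences are of log2(CPM + 1), KO minus WT, tested with limma across the 14884 genes that reached 0.5 CPM in at least 2 libraries. A gene was called at an adjusted p under 0.05. Dis3l2, which checks the labels, stood at 6.50, 4.93 and 4.70 CPM in the KO libraries, against 16.04 and 12.18 CPM in the WT libraries, a log2 difference of -1.24 (standard error 0.21, adjusted p = 0.9545, limma). The libraries held 49.25, 32.23 and 19.61 M assigned reads in KO replicates 1, 2 and 3, against 22.34 and 28.26 M in WT replicates 1 and 2. Mitochondrial ribosomal RNA took 31.5% to 32.9% of the KO values, against 38.9% and 40.7% of the WT values. The small nuclear RNA Rn7sk took 11.9%, 6.5% and 2.3% in KO replicates 1, 2 and 3, against 3.8% and 3.5% in WT replicates 1 and 2, so KO replicate 1 stood apart. This order of libraries is also that of Plk1, Ube2c, Incenp and Spc24, and its part in their levels was not tested. The share of all genes with this order was not counted. Xist was at 872 and 765 CPM in KO replicates 1 and 2 and 0.52 in KO replicate 3, against 0.93 and 951 CPM in WT replicates 1 and 2, so libraries with and without Xist stood in both genotypes. The progenitor markers Six2 (18.6 to 31.9 CPM in KO, 18.8 and 19.0 in WT), Eya1 (194 to 248 CPM in KO, 274 and 168 in WT) and Wt1 (42.1 to 45.6 CPM in KO, 59.4 and 39.6 in WT) were present in every library, while Pax2 was at 0.05 to 0.66 CPM.

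Mitosis genes were well expressed in both genotypes, and none was called between them. Their levels differed between libraries of the same genotype. Of the 42, 36 were highest in KO replicate 1, where 27.9% of all 14884 genes tested were highest, while the medians of KO replicates 2 and 3 lay between those of the WT libraries. Relative to its own mean over the 5 libraries, the median mitosis gene stood 0.33 higher in KO replicate 1, 0.15 lower in KO replicate 2 and 0.05 lower in KO replicate 3 on the log2(CPM + 1) scale, and 0.10 higher in WT replicate 1 and 0.21 lower in WT replicate 2. The median over all genes tested lay within 0.03 of 0 in each library. Within the WT pair, 41 of 42 were higher in replicate 1 than in replicate 2, against 54.8% of all genes, by a median of 1.26-fold. Within KO, 38 of 42 were higher in replicate 1 than in both other replicates, against 39.2% of all genes.

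**Figure D1:**
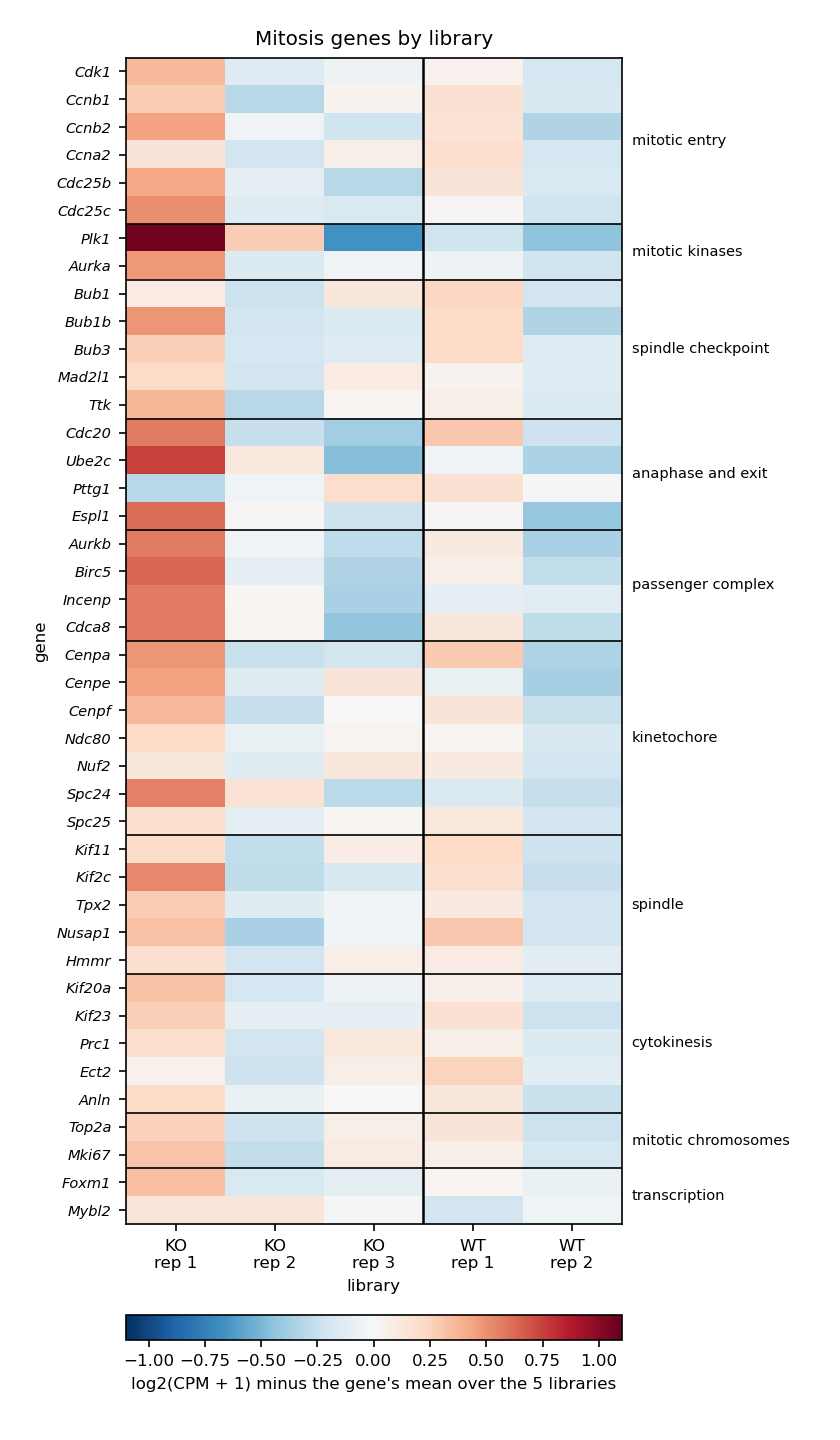
Each cell gives log2(CPM + 1) of 1 mitosis gene in 1 library minus that gene's mean over the 5 libraries, with genes grouped by role and the KO libraries left of the WT libraries. The column of KO replicate 1 is the highest for 36 of 42 genes, and Pttg1 is the gene at its lowest there.

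Of the 42 genes, 36 had a log2 difference of KO minus WT above 0, against 52.9% of all genes, and the median was 0.08 against 0.01 over all genes. That count was 11 without KO replicate 1 and 13 without WT replicate 2, with medians of -0.05 and -0.07, so the direction rested on those 2 libraries. With WT replicate 1 left out it was 41, and with KO replicate 2 left out it was also 41. None of the 42 passed an adjusted p of 0.05 (limma with Benjamini-Hochberg adjustment, adjusted p = 1 for every member), where 1 of 14884 genes, or 0.00672%, did. None passed an unadjusted p of 0.05, which 2.77% of all genes did. The 95% intervals of the difference included 0 for all 42, 0.5 for 26, -0.5 for 11, and 1 for 2, Plk1 and Ube2c. In the authors' deposited table all 42 had an FDR of 1, where 0.0315% of all genes were under 0.05, and their log2 fold changes ran between -0.14 (Pttg1) and 0.76 (Plk1).

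**Figure D2:**
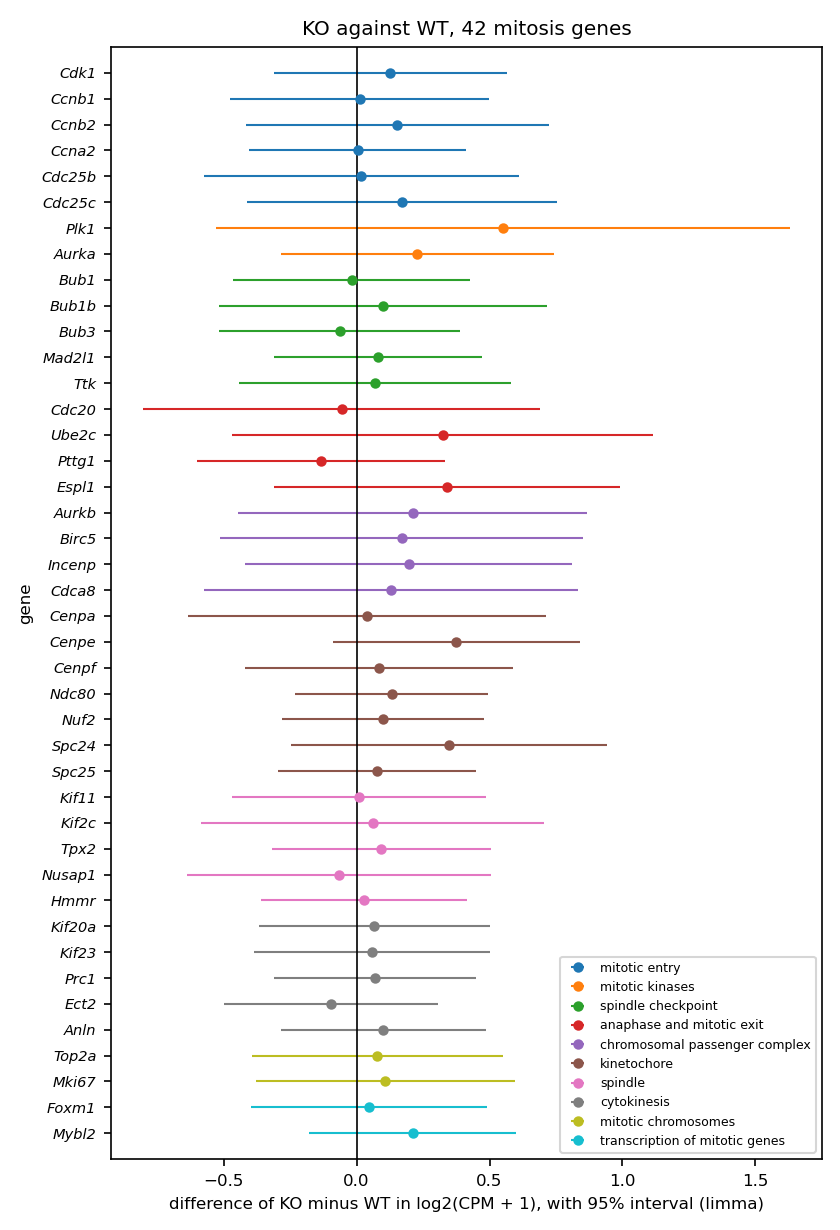
Points give the difference of KO minus WT in log2(CPM + 1) for each of the 42 genes (3 KO and 2 WT libraries), and bars give its 95% interval from limma. All 42 intervals include 0, and Plk1 has the highest estimate, 0.55.

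A single gene, Mybl2, had every KO library above both WT libraries, against 7.85% of all genes. No mitosis gene had every KO library below both WT libraries, against 6.98% of all genes. The level of each gene rested on 151 to 24046 reads per library. The 95% Poisson interval of a level spanned 1.27% to 16.3% of it to either side, with a median of 5.59%. Such intervals cover counting error only.

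Promoters of mitosis genes are known to carry the CHR element (cell cycle genes homology region), bound by the MuvB complex with its DREAM, B-Myb and FoxM1 partners, and inverted CCAAT boxes bound by NF-Y. Promoters are shown because 36 of the 42 genes were highest in KO replicate 1. Of the 42, 41 were also higher in WT replicate 1 than in WT replicate 2. The other KO libraries had no shared order, with 28 genes higher in KO replicate 3 than in KO replicate 2. Whether promoter motifs have a part in these levels was not tested. RefSeq promoters on GRCm38.p6, 300 bases that end 50 bases past the annotated start, were found for 34 of the 42. Ccna2, Cdc25c, Aurkb, Incenp, Spc24, Tpx2, Kif20a and Foxm1 had none. TTTGAA, the core of the CHR, was searched on both strands and stood in 24 of the 34 genes (70.6%), against 20.2% of 27025 genes with a promoter. CCAAT on either strand stood in 25 (73.5%) against 41.1%, and both motifs in 21 (61.8%) against 7.97%. Matches of the 2 motifs can share at most 1 letter, and a match describes the letters and is not a site of binding. Of the 24, 22 had a TTTGAA within 50 bases of the start. The last 200 bases of 6 promoters follow, 5' to 3', from position -150 to 50 around the start, with the letters of both motifs in capitals, on either strand. Plk1 is the kinase with the widest spread over libraries, and Cdk1, Ccnb2 and Cdc20 carry motifs near the start. Mybl2 alone of the 42 was lower in WT replicate 1 than in WT replicate 2, and Pttg1 alone was lowest in KO replicate 1. Both are shown because of these values, and both carry neither motif:
Plk1, chr7:122159285-122159484, plus strand: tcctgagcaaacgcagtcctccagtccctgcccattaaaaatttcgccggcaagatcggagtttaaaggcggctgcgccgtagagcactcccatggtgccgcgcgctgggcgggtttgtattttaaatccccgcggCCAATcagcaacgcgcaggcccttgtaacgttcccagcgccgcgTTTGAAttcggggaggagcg
Cdk1, chr10:69352863-69353062, minus strand: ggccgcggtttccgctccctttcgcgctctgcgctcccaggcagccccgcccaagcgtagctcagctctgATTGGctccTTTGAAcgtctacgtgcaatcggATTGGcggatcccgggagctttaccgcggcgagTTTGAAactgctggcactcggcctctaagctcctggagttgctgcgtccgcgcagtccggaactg
Ccnb2, chr9:70421505-70421704, minus strand: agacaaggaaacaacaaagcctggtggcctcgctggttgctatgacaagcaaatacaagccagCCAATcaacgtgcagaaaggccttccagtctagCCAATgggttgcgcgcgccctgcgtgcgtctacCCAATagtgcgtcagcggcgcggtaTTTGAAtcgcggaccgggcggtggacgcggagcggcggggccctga
Cdc20, chr4:118437294-118437493, minus strand: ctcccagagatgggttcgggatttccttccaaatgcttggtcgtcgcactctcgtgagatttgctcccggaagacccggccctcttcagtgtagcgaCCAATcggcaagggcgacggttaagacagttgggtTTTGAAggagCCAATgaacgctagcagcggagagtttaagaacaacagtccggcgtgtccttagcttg
Mybl2, chr2:163054485-163054684, plus strand: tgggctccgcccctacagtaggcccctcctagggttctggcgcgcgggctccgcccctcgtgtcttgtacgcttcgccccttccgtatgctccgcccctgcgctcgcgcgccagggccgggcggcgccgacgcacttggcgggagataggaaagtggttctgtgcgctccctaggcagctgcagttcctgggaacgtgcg
Pttg1, chr11:43425932-43426131, minus strand: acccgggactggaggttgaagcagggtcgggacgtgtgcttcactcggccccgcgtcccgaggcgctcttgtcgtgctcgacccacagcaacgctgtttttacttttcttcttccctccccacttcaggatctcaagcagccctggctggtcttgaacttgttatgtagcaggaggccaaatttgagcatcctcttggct

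In these sequences TTTGAA began at position 31 of Plk1, -71 and -15 of Cdk1, 5 of Ccnb2 and -18 of Cdc20. Mad2l1, Birc5, Nuf2 and Nusap1 also had neither motif, and each of these was highest in KO replicate 1, as were most of the members. In Mad2l1, Nuf2 and Nusap1 the counting interval of KO replicate 1 met that of another library. Nuf2 was at 41.17 CPM in KO replicate 1 and 41.15 CPM in KO replicate 3. KO replicate 1 exceeded the mean of the other 4 libraries by a median of 0.44 on the log2(CPM + 1) scale in the 24 genes with TTTGAA (0.06 to 1.33), and by 0.31 in the 10 without (-0.38 to 0.79). The ranges overlapped.

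**Figure D3:**
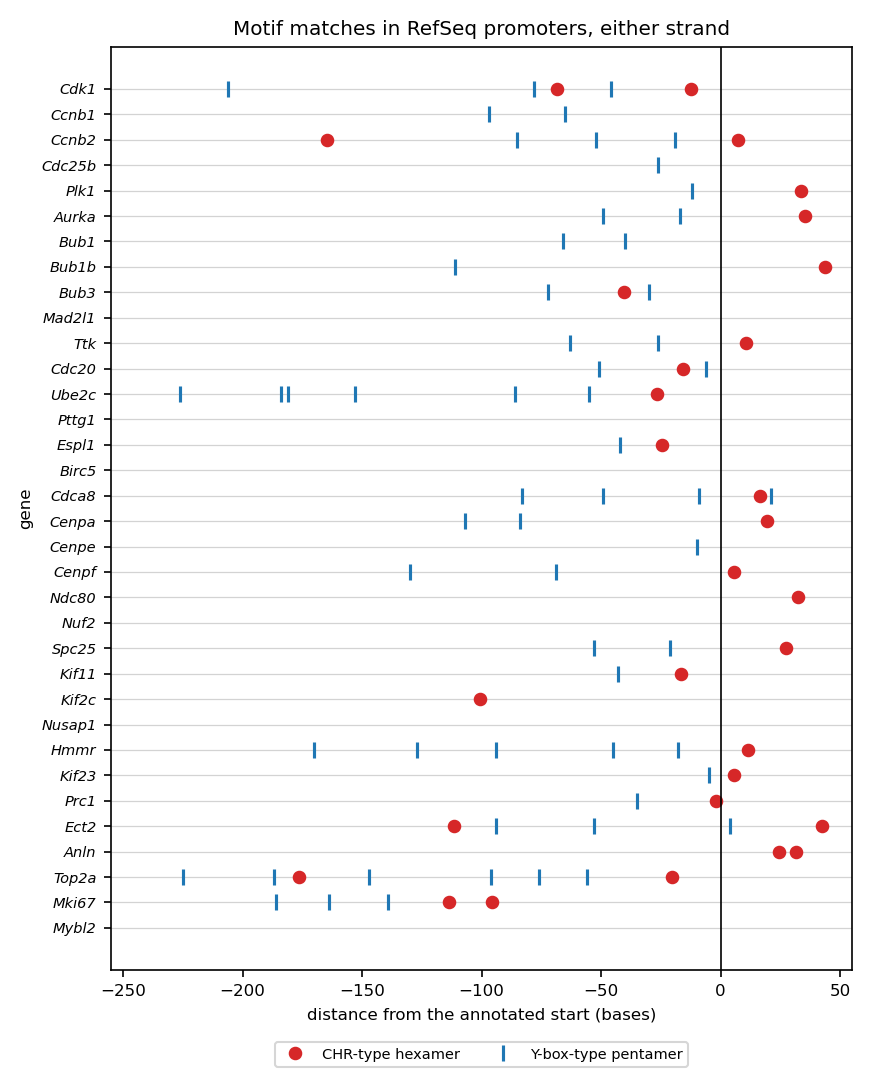
Each line is 1 of the 34 mitosis genes with a RefSeq promoter (the first listed where a gene has more than 1), the horizontal axis gives the distance from the annotated start in bases, and marks show matches to the CHR-type and Y-box-type motifs on either strand. CHR-type matches lie within 50 bases of the start in 22 genes.

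The 6 genes of mitotic entry had differences between 0.00 and 0.17, none past the threshold. Cdk1 (ENSMUSG00000019942.13, GRCm38 chromosome 10, 69335146 to 69352938, minus strand), the kinase that starts mitosis, was at 152.5, 107.5 and 114 CPM in the KO libraries, against 123 and 104 CPM in the WT libraries. KO replicate 1 was the highest, and the other KO libraries lay between the WT libraries. KO minus WT was 0.13 (standard error 0.19, adjusted p = 1, limma). Ccnb1, a cyclin B gene, was at 61.0, 40.3 and 51.3 CPM in KO, against 56.2 and 44.1 CPM in WT. Ccnb2, the other cyclin B gene, was at 41.6, 29.6 and 26.0 CPM in KO, against 33.8 and 23.9 CPM in WT. KO values of Ccnb1 ran below and above both WT values, while for Ccnb2 WT replicate 2 was the lowest library. Ccna2, the cyclin A gene, had 121, 95.1 and 114 CPM in KO, against 125 and 95.9 CPM in WT, a difference of 0.00. The phosphatase genes Cdc25b and Cdc25c, which switch Cdk1 on, were both highest in KO replicate 1. Cdc25c was at 18.5, 11.3 and 11.2 CPM in KO, against 12.8 and 10.7 CPM in WT, and Cdc25b had a difference of 0.02.

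Of the mitotic kinases, Plk1 had the widest spread among the 42 genes. Plk1 (ENSMUSG00000030867.7, chromosome 7, 122159439 to 122169873, plus strand), which drives centrosome maturation and mitotic exit, was at 36.1, 20.4 and 10.2 CPM in the KO libraries, against 14.3 and 12.04 CPM in the WT libraries. KO replicates 1 and 2 lay above both WT libraries and KO replicate 3 below both. The KO values were 3.55-fold apart, against 1.19-fold for WT. Counting intervals of KO replicate 1 (34.4 to 37.8 CPM) and KO replicate 3 (8.85 to 11.6 CPM) do not meet. The mean was 22.2 ± 13.1 CPM in KO (SD, n = 3) and 13.2 ± 1.58 CPM in WT (SD, n = 2), a difference of 0.55 (standard error 0.45, adjusted p = 1, limma). Leaving out KO replicate 1 gave 0.13, and leaving out KO replicate 3 gave 1.00. Aurka, the centrosomal Aurora kinase gene, was at 29.5, 18.7 and 20.4 CPM in KO, against 20.2 and 17.8 CPM in WT, with a difference of 0.23, or 0.04 without KO replicate 1.

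**Figure D4:**
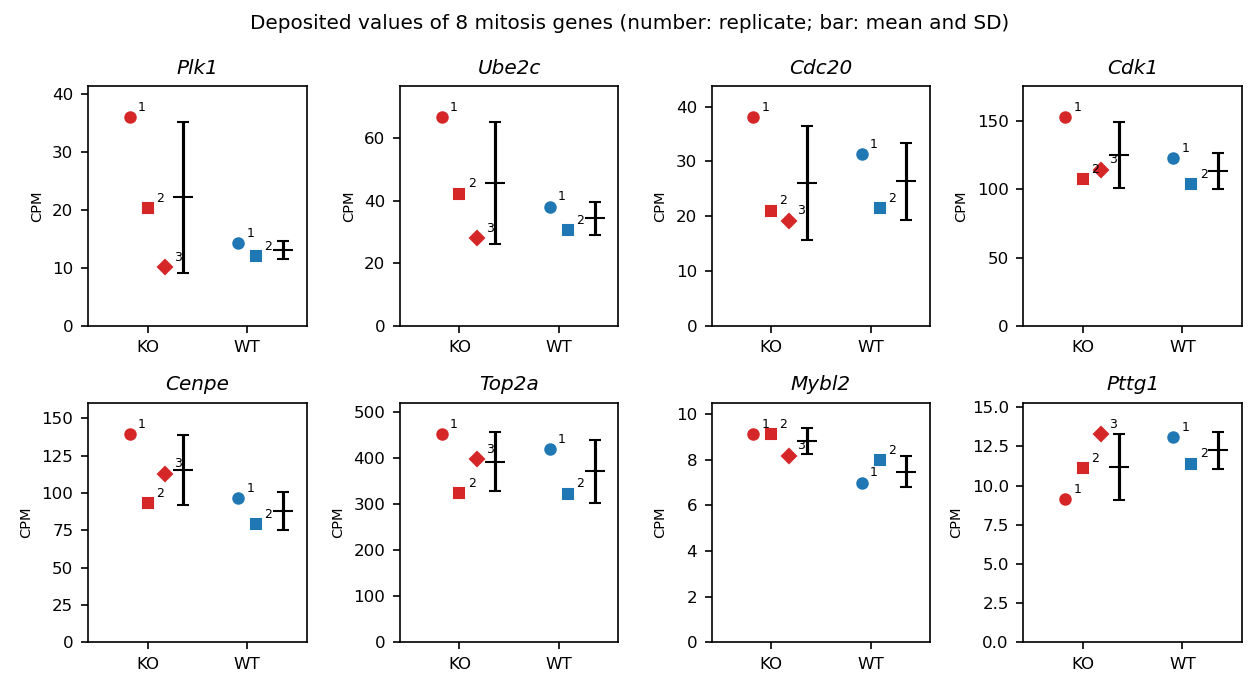
Points give the deposited CPM of 8 mitosis genes in each library, labelled by replicate number, with KO left of WT, and bars give the mean and SD (n = 3 KO and 2 WT). KO replicate 1 is highest in 6 of the 8, it ties with KO replicate 2 in Mybl2, and it is lowest in Pttg1.

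The 5 spindle checkpoint genes had differences between -0.06 and 0.10, none past the threshold. Bub1b, whose product BubR1 restrains Cdc20, was at 78.4, 48.1 and 49.9 CPM in KO, against 64.6 and 44.2 CPM in WT. Bub1, the kinase that recruits checkpoint proteins to kinetochores, was highest in WT replicate 1, with 53.9, 42.9 and 55.5 CPM in KO, against 59.6 and 43.7 CPM in WT. Ttk, which encodes the Mps1 kinase at the top of the checkpoint, was at 32.6, 20.1 and 25.4 CPM in KO, against 26.3 and 22.5 CPM in WT. Mad2l1, the gene of the checkpoint effector Mad2, had a difference of 0.08, and Bub3, a partner of both Bub1 kinases, one of -0.06. All 5 overlapped between the genotypes. Over all genes, 7.85% had every KO library above both WT libraries and 6.98% had every KO library below both, so overlap was the common case.

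The 4 genes of anaphase and exit had differences between -0.13 and 0.34, none past the threshold. Ube2c (chromosome 2, 164769898 to 164778822, plus strand), the ubiquitin-conjugating enzyme of the anaphase promoting complex, was at 66.6, 42.2 and 28.1 CPM in KO, against 38.1 and 30.5 CPM in WT. As in Plk1, KO replicates 1 and 2 lay above both WT libraries and KO replicate 3 below both. Its difference was 0.32 with a standard error of 0.33, and 0.01 without KO replicate 1. Cdc20, the activator of that complex, was at 38.1, 21.02 and 19.2 CPM in KO, against 31.3 and 21.5 CPM in WT. Here KO replicates 2 and 3 lay below both WT libraries, and the difference was -0.06. Espl1, the gene of separase, which cuts cohesin, was at 29.6, 19.2 and 16.0 CPM in KO, against 19.1 and 13.9 CPM in WT. Pttg1 (chromosome 11, 43420250 to 43426251, minus strand), which encodes securin, the inhibitor of separase, ran the other way, with 9.12, 11.1 and 13.3 CPM in KO, against 13.1 and 11.4 CPM in WT. KO replicate 1 was the lowest library for Pttg1 and for no other mitosis gene. The counting interval of that library (8.28 to 10.03 CPM) lay below that of WT replicate 1 (11.6 to 14.7 CPM), and the difference between genotypes was -0.13 with a standard error of 0.20.

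The 4 genes of the chromosomal passenger complex, which corrects faulty attachments and guides cytokinesis, shared an order of the KO libraries. Aurkb, its kinase, was at 38.3, 24.8 and 20.7 CPM in KO, against 27.3 and 19.7 CPM in WT. Birc5, the gene of survivin, was at 71.8, 42.8 and 36.4 CPM in KO, against 48.1 and 37.9 CPM in WT. Incenp, the scaffold gene, was at 75.8, 51.5 and 39.3 CPM in KO, against 47.0 and 46.3 CPM in WT. Cdca8, the gene of borealin, was at 37.8, 25.8 and 18.4 CPM in KO, against 27.7 and 20.6 CPM in WT. KO replicate 1 was highest and KO replicate 3 lowest of the KO libraries in all 4, and the differences ran from 0.13 (Cdca8) to 0.21 (Aurkb). That order is not particular to the complex. It also stood in Plk1, Ube2c, Cdc20, Espl1, Spc24, Ccnb2, Cdc25b, Cdc25c and Kif23, and its share over all genes was not counted.

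Kinetochore genes had 7 differences above 0 out of 7, none past the threshold. Cenpe (ENSMUSG00000045328.11, chromosome 3, 135212537 to 135273611, plus strand), a kinesin that carries chromosomes to the spindle equator, was at 140, 93.4 and 113 CPM in KO, against 96.7 and 79.1 CPM in WT. KO replicates 1 and 3 lay above both WT libraries and KO replicate 2 between them. Cenpe had the smallest unadjusted p among the 42, 0.0977 (difference 0.38, standard error 0.20, adjusted p = 1, limma). Its difference was 0.23 without KO replicate 1 and 0.52 without WT replicate 1. Spc24, a subunit of the Ndc80 complex that grips microtubules, was at 27.6, 20.8 and 14.9 CPM in KO, against 16.5 and 15.3 CPM in WT. Its partners in that complex spread less: Ndc80, Nuf2 and Spc25 had differences of 0.13, 0.10 and 0.08, and the highest library was 1.33, 1.27 and 1.31 times the lowest. Cenpa, the centromeric histone H3 variant, was at 52.5, 31.1 and 32.2 CPM in KO, against 45.6 and 29.1 CPM in WT, and in both genotypes replicate 1 was the highest. Cenpf, a large kinetochore protein gene, had a difference of 0.09.

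Among spindle genes, Tpx2, an activator of Aurora A, was at 126, 94.4 and 101 CPM in KO, against 111 and 89.9 CPM in WT. Kif11, the motor gene that separates the spindle poles, was at 99.2, 71.2 and 91.4 CPM in KO, against 101 and 73.4 CPM in WT, a difference of 0.01. Kif2c, a microtubule-depolymerizing kinesin gene, was at 41.6, 23.5 and 25.2 CPM in KO, against 32.6 and 23.9 CPM in WT. Nusap1 and Hmmr, which encode spindle-associated proteins, had differences of -0.07 and 0.03. None of the 5 had every KO library above both WT libraries, against 7.85% of all genes, or below both, against 6.98%.

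The 5 cytokinesis genes had no library more than 1.44 times another. Prc1, which bundles the midzone microtubules, was at 89.4, 68.8 and 85.7 CPM in KO, against 82.9 and 71.4 CPM in WT. Ect2, the exchange factor that activates RhoA at the division plane, was at 58.2, 47.7 and 58.8 CPM in KO, against 66.6 and 51.3 CPM in WT, and was highest in WT replicate 1. Anln, an actin-ring scaffold gene, had a difference of 0.10, and the midzone kinesin genes Kif20a and Kif23 had 0.07 and 0.06.

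Top2a and Mki67 had the highest levels per length. Top2a (chromosome 11, 98992943 to 99024189, minus strand), the topoisomerase that untangles sister chromosomes, was at 453, 325 and 398 CPM in KO, against 420 and 323 CPM in WT. Mki67 (chromosome 7, 135689784 to 135716361, minus strand), the proliferation marker that coats mitotic chromosomes, was at 512, 343 and 439 CPM in KO, against 432 and 360 CPM in WT. Both were lowest in replicate 2 of each genotype. Per kb of merged exon the mean level of Top2a was 43.5 CPM in KO and 41.2 in WT, and that of Mki67 42.9 in KO and 39.4 in WT. The median mitosis gene was at 9.68 CPM per kb in KO, and Mybl2 was the lowest at 1.90 in KO and 1.62 in WT.

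Of the transcription factors of the G2/M programme, Foxm1 was at 29.4, 20.6 and 21.5 CPM in KO, against 23.5 and 22.0 CPM in WT. Mybl2 (ENSMUSG00000017861.11, chromosome 2, 163054687 to 163084688, plus strand), which encodes B-Myb, a MuvB partner that acts from S phase, was at 9.14, 9.14 and 8.18 CPM in KO, against 7.00 and 7.97 CPM in WT. All KO libraries lay above both WT libraries, and Mybl2 was the 1 gene of the 42 lower in WT replicate 1 than in WT replicate 2. The means were 8.82 ± 0.55 CPM in KO (SD, n = 3) and 7.48 ± 0.69 CPM in WT (SD, n = 2), a difference of 0.21 (standard error 0.16, adjusted p = 1, limma). KO replicate 3 and WT replicate 2 were within counting error of each other, with intervals of 7.01 to 9.50 and 6.97 to 9.07 CPM.

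The surplus in KO replicate 1 was not even over the roles. Its excess over the mean of the other 4 libraries, as a difference of log2(CPM + 1), had a median of 0.96 for the 2 genes listed as kinases. These were Plk1 (1.33) and Aurka (0.59), and kinase genes under other roles ranged from 0.11 (Bub1) to 0.72 (Aurkb). The median was 0.74 for the anaphase and exit genes, 0.71 for the passenger complex, 0.49 for the entry genes and 0.44 for kinetochore genes. It was 0.35 for spindle genes, 0.35 for Top2a and Mki67, 0.33 for the checkpoint, 0.29 for the transcription factors and 0.25 for cytokinesis. The surplus also ran with base composition. Across the 42 genes its Spearman rho with the GC content of the longest coding transcript was 0.67, and across 12342 coding genes it was 0.43. These genes share the same 5 libraries. In 3 equal groups of coding genes from low to high GC, the median surplus was -0.13, 0.01 and 0.20 over all coding genes, against 0.27, 0.61 and 0.71 for the 21, 13 and 8 mitosis genes there. With each library's GC trend removed, an alternative chosen after the data had been seen, 40 of 42 mitosis genes were highest in KO replicate 1, and their median difference of KO minus WT was 0.10.

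**Figure D5:**
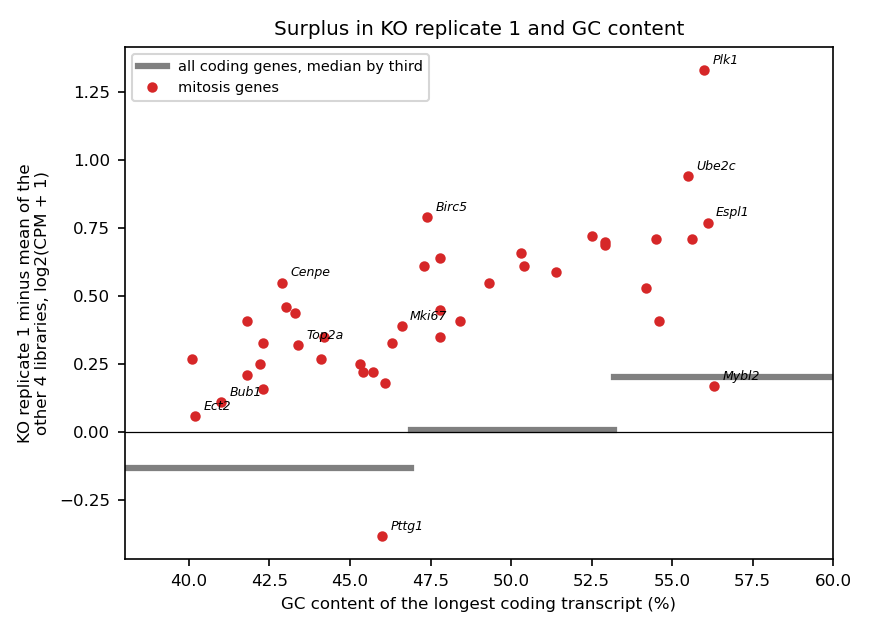
Red points are the 42 mitosis genes, with the GC content of the longest coding transcript on the horizontal axis and, on the vertical axis, log2(CPM + 1) in KO replicate 1 minus the mean of the other 4 libraries. Grey lines give the median of all coding genes in 3 equal groups by GC, drawn within the plotted range, and 41 of the 42 points lie above 0.

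Sums of cell type markers differed between libraries as well. The 16 progenitor markers summed to 1357, 1085 and 1182 CPM in KO, against 1308 and 1030 CPM in WT. The sums had the same order of libraries as the median mitosis gene. Itga8, the largest marker, did not (407, 356 and 471 CPM in KO, 438 and 441 CPM in WT). Of the 15 tested, 8 were highest in KO replicate 1. Their median deviations from the gene's own mean were 0.46, -0.17 and -0.18 in KO, against 0.08 and -0.28 in WT, with KO replicates 2 and 3 in the other order. Cited1, a marker of uncommitted progenitors, was at 17.1, 4.74 and 2.73 CPM in KO, against 15.2 and 1.40 CPM in WT. The 10 renal stroma markers summed to 1189, 2396 and 2104 CPM in KO, against 1263 and 2278 CPM in WT, so both replicates 1 had the lowest sums. Single markers differed from the sum. Of the 9 tested, 3 (Meis1, Meis2 and Tcf21) were highest in KO replicate 1, and Aldh1a2 was highest in WT replicate 1. Among the 10, Acta2 was at 167, 853 and 903 CPM in KO, against 109 and 404 CPM in WT, and Foxd1, the defining stromal factor, was at 0.13 to 0.25 CPM in every library. The 11 epithelial markers summed to 11.9, 37.9 and 23.1 CPM in KO, against 12.1 and 52.8 CPM in WT, and 5, 1 and 7 of them in KO, against 6 and 1 in WT, were at 3 reads or fewer. The 7 podocyte markers summed to 9.11 to 12.3 CPM in KO, against 11.3 and 20.8 CPM in WT. The endothelial markers summed to 40.2 to 60.4 CPM in KO, against 48.8 and 73.2 CPM in WT, and the leukocyte markers to 4.95 to 5.69 CPM in KO, against 7.65 and 7.25 CPM in WT. Erythroid markers summed to at most 4.22 CPM. The part of these markers and of GC content in the mitosis gene levels was not tested.

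Split by Xist, KO replicates 1 and 2 against WT replicate 2 gave a median difference of 0.29 over the mitosis genes, above 0 in 41 of 42, against 0.03 over all genes. KO replicate 3 against WT replicate 1 gave -0.13, above 0 in 9 of 42, against -0.02 over all genes. The splits have 1 WT library each, so these are values with no test, and they point in opposite directions.

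Other genes of the cell cycle were compared through lists. Over all genes tested, 52.9% had a difference above 0, 0.00672% were called and 27.9% were highest in KO replicate 1. Of 82 other mitosis genes tested, 58 had a difference above 0 and none was called, with a median of 0.10, and 58 were highest in KO replicate 1. The 4 with the smallest p were Cenpw (0.54), Cenph (0.40), Cdkn3 (0.27) and Cenpo (0.27), with unadjusted p of 0.0786 to 0.151. Of 51 G1/S and DNA replication genes, 39 had a difference above 0 and none was called, with a median of 0.12, and 28 were highest in KO replicate 1. Ccnd3, a cyclin D gene, was at 23.2, 25.9 and 19.4 CPM in KO, against 15.6 and 15.9 CPM in WT, with a difference of 0.50 (adjusted p = 1, limma). The next were Fen1 (0.39), Gins4 (0.27) and Ccne1 (0.26). Of these replication genes 12 stood higher in all KO libraries than in both WT libraries, against 7.85% of all genes, and 1 stood lower in all, against 6.98%. Of the 17 genes of the anaphase promoting complex and its partners, 15 had a difference above 0, led by Anapc13 (0.42), Ube2s (0.29), Anapc7 (0.13) and Anapc2 (0.12), and none was called.

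Among regulators around the mitotic programme, KO replicate 1 was highest in 4 of 15 DREAM and RB components and in 2 of 14 inhibitors of the cycle, against 27.9% of all genes. Of the 15, 5 had a difference above 0, with a median of -0.03, and Lin37 (0.38), E2f7 (0.19), Rb1 (-0.31) and Rbl1 (-0.15) had the smallest p. Of the 14 inhibitors, 10 had a difference above 0, with a median of 0.22, and none was called. The KO libraries all exceeded both WT libraries in 3 of the 14 (Cdkn1c, Btg1 and Gadd45g), against 7.85% of all genes, and all lay below both in 2 (Gadd45a and Cdkn1b), against 6.98%. Cdkn1b, the gene of the Cdk inhibitor p27, is named because of that count and was chosen after its values were seen. Cdkn1c, the imprinted gene of the Cdk inhibitor p57, was at 59.6, 45.5 and 47.3 CPM in KO, against 32.1 and 27.4 CPM in WT, a difference of 0.75 (standard error 0.17, adjusted p = 1, limma). Btg1, an antiproliferative gene, was at 36.7, 30.1 and 33.4 CPM in KO, against 24.7 and 23.7 CPM in WT. Gadd45a, a p53 target, was at 11.3, 12.4 and 9.03 CPM in KO, against 14.8 and 15.1 CPM in WT. Gadd45g had a difference of 0.89 (5.88, 13.9 and 5.36 CPM in KO, against 2.92 and 4.6 CPM in WT).

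Some members share exons with neighbours on the opposite strand, and it is not stated if reads were counted by strand. In GENCODE M21 Kif20a shares 29.3% of its exon bases with Cdc23, Ube2c 22.8% with Tnnc2, Cdc25c 12.7% with Gm3550, Ccna2 12.5% with Exosc9, Prc1 11.1% with Rccd1 and Plk1 7.1% with Gm44985. Smaller opposite-strand overlaps were found for Cdca8 (4.5%), Nusap1 (4.2%), Cdc20 (2.8%) and Cdc25b (2.5%). On the same strand Foxm1 shares 2.5% with Tex52 and 1.7% with Gm44596, and Top2a 1.4% with the snoRNA Gm23451. Levels of all these genes are uncertain by an amount that was not measured, and the share of bases does not set it. The pseudogenes named for Ccnb1 and Ccnb2 were at 0.13 CPM or less in every library.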

How the data were processed

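RNA was read as stranded total RNA libraries, single end, on a HiSeq2500, per the labels' protocols. Per the submitters' processing notes HISAT2 2.1.0, featureCounts and edgeR 3.20.1 were used with the mouse build mm10. The annotation release and strand setting were not given in the sources used here. The authors deposited 1 signal column per library, CPM relative to effective library sizes, with 2 decimals. They also deposited a log2 fold change, an average log2 CPM, a likelihood ratio score, a p-value and an FDR per gene. Depth came from the step between low values, of which at least 99.95% lay on whole reads. The rule for a count test was not met because of rounding, so none was run.

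Genes that reached 0.5 CPM in 2 or more libraries were kept (14884) and log2(CPM + 1) was fitted with limma 3.58.1 (R 4.3.3, trend option), genotype as the only term, all 5 libraries, with Benjamini-Hochberg adjustment over all genes and a threshold of 0.05. The fit was run on simulated data, with genes drawn independently at a common dispersion. Those data held no deviation shared by the genes of a library, so they do not test the fit for it. All 42 members passed the filter. Members, roles, lists and the rule for named genes (all members, and the 4 smallest p of each list) were chosen with earlier results of these data known. Coordinates and exon lengths are from GENCODE M21, in which all 42 identifiers matched, 36 of them with the same version. Alternatives were other pseudocounts, filters and scalings, a replicate block, an Xist term, removal of the GC trend, and leaving out each library.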

Additional observations from a re-analysis of the deposited data

How the results depend on the processing

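No mitosis gene was called under any alternative without a block. The count of all genes called, 1, was 0 with a pseudocount of 5, no filter, median-of-ratios scaling, no variance trend, an Xist term or the GC trend removed, and 0 to 8 when 1 library was left out, where a lone WT library is assumed to vary like the KO libraries. Mitosis genes with a difference above 0, 36, ranged from 11 (without KO replicate 1) to 41 when a library was left out, and their median from -0.07 to 0.24. Mitosis genes whose KO libraries all exceeded both WT libraries, 1, were 2 with plain CPM or the GC trend removed, with or without a block, and 1 to 17 when a library was left out. Those below both, 0, were 0 to 4. The cause of these changes was not tested, although fewer libraries overlap less by construction. The share of all genes with such a separation was counted only in the main fit, so these counts have no background to be read against. Those with a difference above 0 numbered 32 with median-of-ratios scaling and 37 with plain CPM. Genes highest in KO replicate 1 numbered 30 with plain CPM to 40 with the GC trend removed. Each gene kept the sign of its difference under other pseudocounts, filters and no trend, while 19 did without WT replicate 2 and 17 without KO replicate 1.

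The replicate numbers are shared by the genotypes, but no label says what they mark. Deviations from the genotype means correlated at 0.41 for the replicates numbered 1 and 0.54 for those numbered 2. The deviations of the 2 WT libraries mirror each other by construction, so these values share 1 WT contrast and are not separate. With 2 pairs this does not establish pairing. With a replicate block, in which KO replicate 3 has a term of its own and drops out, leaving 1 residual degree of freedom, 390 genes were called and 1 mitosis gene, Plk1 (difference 1.00, adjusted p = 0.0467, limma, against 0.1171 to 1 under the other alternatives). With the block and the GC trend removed, 39 genes were called and no mitosis gene. Depth limits the low members most: the fewest reads behind a level were 151, for Mybl2 in WT replicate 1.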
